A study of Homo sapiens with 6 samples.

Results

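The genes described here are 46 genes of the ATF4 pathway and of amino acid supply, measured by RNA sequencing in the undifferentiated gastric cancer cell line HGC-27. They were chosen by name, with earlier results of these data known, and each had 1 row among the 58233 gene rows of the deposited table. One group, siNC, received a negative control siRNA, and the other, siSTRN3, a mixture of siRNAs against STRN3, whose product striatin-3 is a regulatory part of the phosphatase PP2A. Cells of both groups grew in medium with serum and were collected 72 h after transfection with the lipid reagent RNAiMAX, and each group had 3 libraries. Separate cultures are not named for them, so a p-value here weighs a difference against the spread of libraries alone, which may be technical.

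ATF4 is a transcription factor whose protein is made when an eIF2 kinase phosphorylates the initiation factor eIF2 and most other translation slows. It dimerises with other basic leucine zipper factors, such as the C/EBP proteins, and raises genes that make amino acids, carry them into the cell and limit the stress response. Cells that lack amino acids, or whose endoplasmic reticulum is overloaded, use this route, and tumour cells often depend on the serine, asparagine and leucine it supplies.

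Values are in TPM, which corrects for gene length and drops the number of reads, so depth is unknown. The libraries labelled siSTRN3 did not hold less STRN3 RNA, at 4.22 ± 0.951 TPM in siNC and 5.11 ± 0.411 TPM in siSTRN3 as deposited (SD, n = 3), and after the rescaling described next its level was higher (log2 fold change 0.78 ± 0.13 SE, limma, adjusted p = 0.00896). Directions below therefore compare libraries by their labels. The makeup of the RNA moved with the label too. Rows of the 5.8S ribosomal RNA took 8.93% ± 0.286 of the TPM total in siNC and 22.9% ± 0.347 in siSTRN3, and protein-coding rows 77.6% ± 0.717 and 52.2% ± 0.637 (SD, n = 3). The median tested row was lower by 0.57 on the log2 scale as deposited (log2 fold change -0.57). Each library was therefore multiplied by 1 factor (0.809 to 0.826 in siNC, 1.27 to 1.30 in siSTRN3) that brought the medians of the tested rows together, and "rescaled TPM", "rose" and "fell" refer to that scale. Folds are those of the fit on TPM + 1, which understates the differences of low genes. The part of this makeup in single differences was not tested. The epithelial markers EPCAM, CDH1, KRT18, KRT19 and CLDN4 were under 1 TPM in every library and all 6 epithelial markers summed to 1.43 to 2.71 TPM. The 5 mesenchymal markers summed to 2998 to 3075 TPM in siNC and 1731 to 1764 TPM in siSTRN3 as deposited. Nearly all of this was VIM, at means of 3011 and 1737 TPM. CDH2, also on that list, was at most 0.11 TPM in any library. FN1, ZEB1 and ZEB2 had means of 7.16, 3.86 and 4.57 TPM in siNC and 4.74, 3.23 and 3.73 TPM in siSTRN3. The 5 fibroblast markers summed to 695 to 702 and 381 to 401 TPM as deposited and went both ways after rescaling, with COL3A1 (-0.35), DCN (-0.46) and LUM (-0.25) lower, COL1A1 higher (0.44) and PDGFRB not past the threshold (0.28). The 5 leukocyte markers summed to 1.34 to 2.53 TPM and the 4 endothelial markers to at most 0.02 TPM in any library. Their part in the results was not tested.

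ATF4 and C/EBP proteins bind together at a composite element whose core reads TGATGNAA (N is any base). The 250 bases before each RefSeq start (GRCh38.p14) were searched for these letters on both strands, and a gene with several starts counted if any of them had a match. Of 39 members with an entry, 8 held them (20.5%), against 200 of 9167 tested genes with an entry (2.18%). The members were chosen by name as genes of the ATF4 pathway, so a higher share was built into the list. It is not a result of these libraries. The 8 windows are shown because they hold the letters searched. They are given 5′ to 3′ on the gene's own strand, each with 30 bases on either side and the matching letters in capitals.
ASNS, chr7:97872439-97872506, minus strand: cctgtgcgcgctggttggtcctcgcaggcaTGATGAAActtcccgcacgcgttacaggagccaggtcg
SLC1A5, chr19:46784874-46784941, minus strand: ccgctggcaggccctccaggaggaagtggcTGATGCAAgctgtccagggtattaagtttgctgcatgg
CEBPG, chr19:33374041-33374108, plus strand: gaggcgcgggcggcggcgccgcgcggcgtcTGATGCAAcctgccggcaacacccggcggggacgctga
CHAC1, chr15:40953232-40953299, plus strand: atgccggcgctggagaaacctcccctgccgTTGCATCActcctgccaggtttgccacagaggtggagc
ATF3, chr1:212565186-212565253, plus strand: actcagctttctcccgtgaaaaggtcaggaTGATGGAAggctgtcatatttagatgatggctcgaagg
MTHFD1L, chr6:150866327-150866394, plus strand: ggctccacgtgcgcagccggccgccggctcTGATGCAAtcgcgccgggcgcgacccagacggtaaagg
BCAT1, chr12:24949112-24949179, minus strand: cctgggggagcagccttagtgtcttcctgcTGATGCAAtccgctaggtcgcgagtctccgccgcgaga
GOT1, chr10:99430785-99430852, minus strand: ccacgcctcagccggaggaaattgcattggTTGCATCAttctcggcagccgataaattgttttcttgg
In CHAC1 and GOT1 the match lies on the opposite strand and reads as its reverse complement, TTNCATCA. In ASNS it covers positions -68 to -61 before a RefSeq start. The SLC1A5 window lies well inside the gene, which spans 46774883 to 46788594 on the minus strand in GENCODE release 29, and the match there covers -97 to -90 before 1 of the gene's 3 promoter entries. The windows of the other genes except ATF3 also lie inside the span that GENCODE gives the gene. Of the 8 genes, ASNS and SLC1A5 fell and the other 6 did not pass the test. The letters were found in 2 of 10 members that fell and had an entry, in 0 of 6 that rose and in 6 of 22 that did not pass. Over all tested genes with an entry they were in 19 of 1009 that fell (1.88%) and 15 of 1002 that rose (1.5%). EIF2AK1, SHMT2 and PYCR1 rose but had no entry. The search did not reach beyond the 250 bases, and a link between the letters and the direction was not tested. A match is a description of letters and not a measured binding site.

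Across the 46 genes the pathway did not move one way. Of the 45 tested members (CBS was below the filter of 1 TPM in at least 3 libraries), 9 rose, 11 fell and 25 did not pass (limma-trend on log2(TPM + 1), Benjamini-Hochberg adjusted p under 0.05 over all 13004 tested rows). Over all tested rows 11% rose and 10.4% fell, 21.3% in both directions together, and 31.1% of rows at a mean of 10 rescaled TPM or more passed. If TPM was instead taken over protein-coding rows alone, 6 members rose and 13 fell. When any one of the 6 libraries was left out 4 to 8 rose and 7 to 11 fell, with 5 risen without siNC replicate 1 or siSTRN3 replicate 3, 4 risen without siNC replicate 2 or 3, and 7 fallen without siNC replicate 1 or 3. The median log2 fold change of the members was 0.04, against -0.01 for all tested rows. By role the medians lay apart, at 0.26 for the 4 eIF2 kinases, 0.15 for the 8 serine and one-carbon enzymes, 0.10 for the 6 transcription factors, -0.07 for the 9 other amino acid enzymes tested, -0.19 for the 10 transporters and -0.25 for the 8 stress effectors. The 17 enzymes tested held 6 that rose and 2 that fell, whereas no transporter rose and 4 fell. The groups did not overlap in 25 members, with all siSTRN3 libraries above in 12 and below in 13, and over all tested rows this held for 20.7% above and 21.8% below.

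As deposited, 44 of the 45 tested members were lower in siSTRN3 and none was higher, beside 80.8% of all rows lower and 1.01% higher. The exception was EIF2AK3 (log2 fold change -0.23, not past the threshold). A rise relative to the median gene is therefore a smaller fall of the deposited value in every member that rose. Among the 46 members, 27 in the authors' deposited table had an adjusted p under 0.05, against 7.32% of all its rows, and 18 of the 20 members called here were among them, while 0 of the 46 carried its final call of significant, which 0.0979% of rows have. These shares are not a like comparison, since 45 of the 46 members but only 13004 of the 58233 gene rows passed the filter on low values. EIF2AK1 and ALDH18A1 were called here but had an adjusted p of 0.310 and 0.112 in the authors' deposited table.

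**Figure D1:**
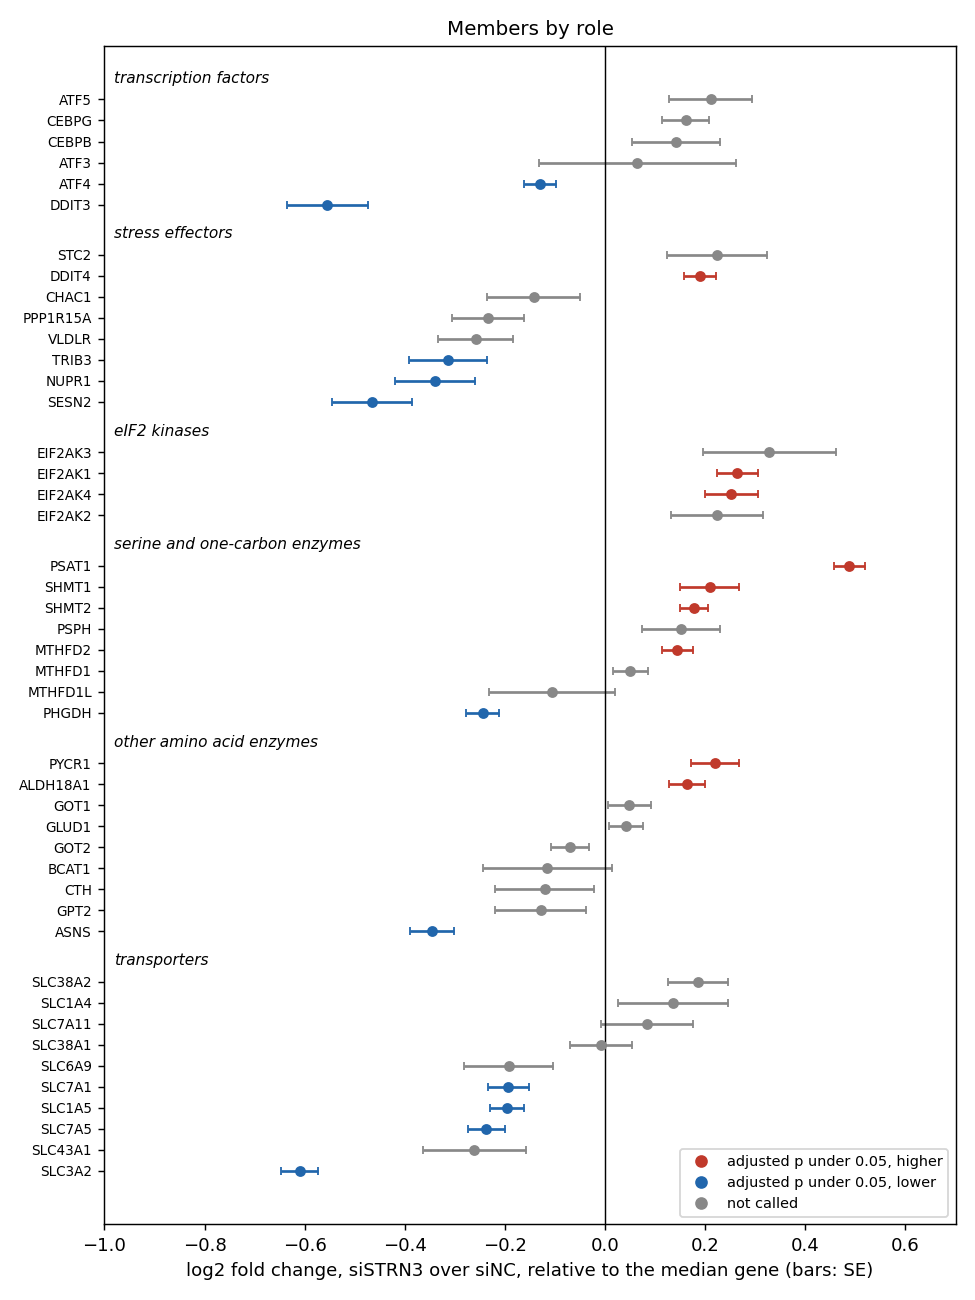
Log2 fold change of the 45 tested members (points, with standard errors as bars), siSTRN3 over siNC relative to the median gene, grouped by role and coloured by the limma call at adjusted p under 0.05. SLC3A2 at -0.61 and PSAT1 at 0.49 are the ends of the range, and no transporter rose.

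**Figure D2:**
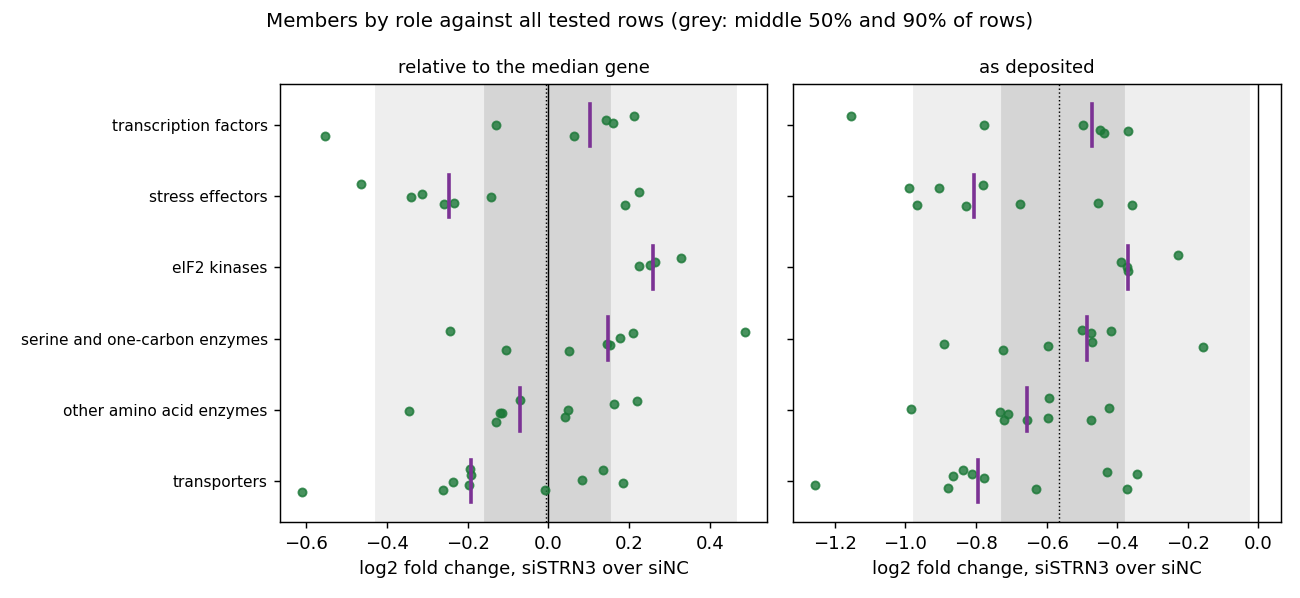
Log2 fold change of each tested member (green points) by role, on the rescaled values at left and the deposited values at right, with each role's median as a purple bar, the middle 50% and 90% of the 13004 tested rows in grey and their median dotted. The kinases have the highest median and the effectors the lowest in both panels, and the right panel is shifted down with the median row, at -0.57.

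Among the transcription factors, DDIT3 fell and ATF4 fell slightly, while the 4 others did not pass. DDIT3 (chromosome 12, 57516588 to 57521737, GRCh38) encodes CHOP, a C/EBP family factor that ATF4 raises under lasting stress. It stood at 17.3, 15.7 and 15.2 rescaled TPM in the siNC libraries and at 9.70, 10.5 and 11.7 in siSTRN3. All siSTRN3 libraries lay below all siNC libraries, a 1.47-fold lower level (log2 fold change -0.56 ± 0.081 SE, limma, adjusted p = 0.00584). The exons of DDIT3 overlap those of MARS, the gene of methionyl-tRNA synthetase, whose level was far higher and also lower in siSTRN3 (-0.50 ± 0.21 SE on the log2 scale, from 155 to 112 rescaled TPM, adjusted p = 0.130). The strand setting of the counting is not known, so a part of MARS reads in the DDIT3 value was not tested.

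ATF4 (chromosome 22, 39519695 to 39522685) was the most abundant of these factors, at 293, 293 and 295 rescaled TPM in siNC and 257, 274 and 275 in siSTRN3. The siNC libraries were nearly equal and all siSTRN3 libraries lay below them. The fall was small, 1.09-fold (log2 fold change -0.13 ± 0.032 SE, limma, adjusted p = 0.0328), and it no longer passed when any siNC library was left out (adjusted p = 0.0649 to 0.0859) or without siSTRN3 replicate 1 or 2 (0.0538 and 0.054). ATF4 protein is set largely by translation, which these libraries do not measure. ATF5, a related factor under the same translational control, was at 7.82 ± 0.0861 and 9.25 ± 0.989 rescaled TPM (SD, n = 3; log2 fold change 0.21, adjusted p = 0.117, and 0.0374 without siSTRN3 replicate 2). CEBPG, a dimer partner of ATF4, was at 13.7 ± 0.354 and 15.4 ± 0.153 with no overlap (0.16, adjusted p = 0.0528). CEBPB, another partner, stood at 0.14 and ATF3, a repressor that ATF4 raises, at 0.06, both with overlapping groups.

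The stress effectors were mostly on the lower side, with SESN2, NUPR1 and TRIB3 falling and DDIT4 rising among 8 genes. SESN2 encodes sestrin-2, a leucine-binding inhibitor of the growth kinase mTORC1. It stood at 5.57, 5.15 and 5.47 rescaled TPM in siNC and at 3.40, 3.97 and 3.53 in siSTRN3. Every siSTRN3 value was below every siNC value, with a ratio of the means of 0.674, which is 1.38-fold lower on TPM + 1 (log2 fold change -0.47 ± 0.080 SE, limma, adjusted p = 0.0102).

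DDIT4 encodes REDD1, also an inhibitor of mTORC1, and went the other way. Its values were 93.3, 89.4 and 92.6 rescaled TPM in siNC and 104, 107 and 103 in siSTRN3. The groups did not overlap and the difference was 1.14-fold (log2 fold change 0.19 ± 0.032 SE, limma, adjusted p = 0.00928). Both inhibitors kept their calls when any one library was left out.

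NUPR1, a small chromatin-associated stress protein, stood at 34.7, 30.1 and 33.0 rescaled TPM in siNC and at 24.6, 23.9 and 28.2 in siSTRN3 (log2 fold change -0.34 ± 0.080 SE, limma, adjusted p = 0.0269). TRIB3, a pseudokinase that binds ATF4 and dampens it, stood at 11.98, 11.7 and 11.3 and at 9.24, 10.1 and 8.26 (-0.31 ± 0.078 SE, adjusted p = 0.0328). In both the groups did not overlap. The call of NUPR1 ended when siNC replicate 1, siNC replicate 3, siSTRN3 replicate 1 or siSTRN3 replicate 2 was left out (adjusted p = 0.0884, 0.084, 0.0703 and 0.0699), and that of TRIB3 without any one library except siSTRN3 replicate 2 (0.0599 to 0.0971). PPP1R15A, the eIF2 phosphatase subunit that ends the response, was at 6.10 ± 0.383 and 5.03 ± 0.135 rescaled TPM (SD, n = 3; -0.23, adjusted p = 0.0612), and VLDLR, a lipoprotein receptor, at 8.23 ± 0.0262 and 6.73 ± 0.596 (-0.26, adjusted p = 0.0525), neither past the threshold although their groups did not overlap. With TPM over protein-coding rows alone, PPP1R15A and VLDLR did pass as lower (limma, adjusted p = 0.0268 and 0.0261). CHAC1, which breaks down glutathione, stood at -0.14 and STC2, a secreted glycoprotein, at 0.22, both with overlapping groups.

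The 4 eIF2 kinases all lay above 0, and EIF2AK1 and EIF2AK4 rose. EIF2AK1, the heme-regulated kinase HRI, was the most abundant, at 37.4, 38.1 and 38.4 rescaled TPM in siNC and 47.8, 44.8 and 44.8 in siSTRN3. The siSTRN3 libraries all lay above (log2 fold change 0.26 ± 0.040 SE, limma, adjusted p = 0.00689). Its exons overlap those of AIMP2, which went the other way, from 264 to 207 rescaled TPM (-0.35 ± 0.024 SE, adjusted p = 4.23e-04). EIF2AK4, the amino acid sensor GCN2, stood at 19.9, 19.4 and 18.6 rescaled TPM in siNC and at 22.0, 24.2 and 23.5 in siSTRN3 (0.25 ± 0.053 SE, adjusted p = 0.0191). These groups were apart as well, but the call ended when siNC replicate 2, siNC replicate 3, siSTRN3 replicate 2 or siSTRN3 replicate 3 was left out (adjusted p = 0.0582, 0.062, 0.0522 and 0.0515). EIF2AK2, the double-stranded RNA sensor PKR, stood at 0.22 (adjusted p = 0.131) and EIF2AK3, the endoplasmic reticulum kinase PERK, at 0.33 (adjusted p = 0.127), both with overlapping groups. In level the order was EIF2AK1, EIF2AK4, EIF2AK2 and EIF2AK3 in both groups of libraries.

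The serine pathway split at its first steps. PHGDH, which takes the first step from the glycolytic intermediate 3-phosphoglycerate, fell, and PSAT1, the transaminase of the next step, rose. PSAT1 (chromosome 9, 78297143 to 78330093) stood at 97.1, 98.4 and 101 rescaled TPM in siNC and at 137, 142 and 139 in siSTRN3. No siSTRN3 value came near the siNC values, a 1.40-fold rise (log2 fold change 0.49 ± 0.030 SE, limma, adjusted p = 2.84e-04). As deposited, PSAT1 was at 121 ± 2.19 TPM in siNC and 108 ± 1.24 TPM in siSTRN3 (SD, n = 3; log2 fold change -0.16). It was the member closest to 0 on that scale.

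PHGDH (chromosome 1, 119648411 to 119744226) stood at 188, 188 and 196 rescaled TPM in siNC and at 159, 166 and 158 in siSTRN3. Every siSTRN3 library was lower, 1.18-fold by the fit (log2 fold change -0.24 ± 0.033 SE, limma, adjusted p = 0.00427). PSPH, the phosphatase that completes serine, was at 22.7 ± 1.26 and 25.4 ± 2.47 rescaled TPM with overlap (SD, n = 3; 0.15, adjusted p = 0.208). PSAT1 and PHGDH kept their calls without any one library.

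A ratio of 2 genes within a library does not depend on the common factor. Such ratios were computed for 12 pairs linked by function and chosen after the values were seen. The groups lay apart in 7 pairs and overlapped in 5. The overlapping pairs were SHMT2 over SHMT1, MTHFD2 over MTHFD1L, PYCR1 over ALDH18A1, TRIB3 over DDIT3 and EIF2AK4 over EIF2AK1. PSAT1 over PHGDH was 0.515, 0.523 and 0.516 in the siNC libraries and 0.860, 0.854 and 0.880 in siSTRN3 (difference 0.74 on the log2 scale; exact 2-sided permutation test p = 0.1, the smallest that 3 against 3 allows, and 0.171 adjusted over the 12 pairs). ASNS over PSAT1 was 0.662 ± 0.0135 in siNC and 0.369 ± 0.0132 in siSTRN3 (SD, n = 3; exact p = 0.1, 0.171 adjusted). In both ratios the libraries of a group lay close together and the groups lay apart. Both pairs set a gene that rose against a gene that fell, each without overlap. The ratio groups therefore had to lie apart, and these tests add no separate support. DDIT3 over ATF4 was 0.0589, 0.0537 and 0.0517 in siNC and 0.0378, 0.0385 and 0.0425 in siSTRN3 (exact p = 0.1, 0.171 adjusted). SHMT2 over SHMT1, the mitochondrial over the cytosolic enzyme that splits serine to glycine, was 9.61 ± 0.557 and 9.35 ± 0.258 with overlap (exact p = 0.5).

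**Figure D3:**
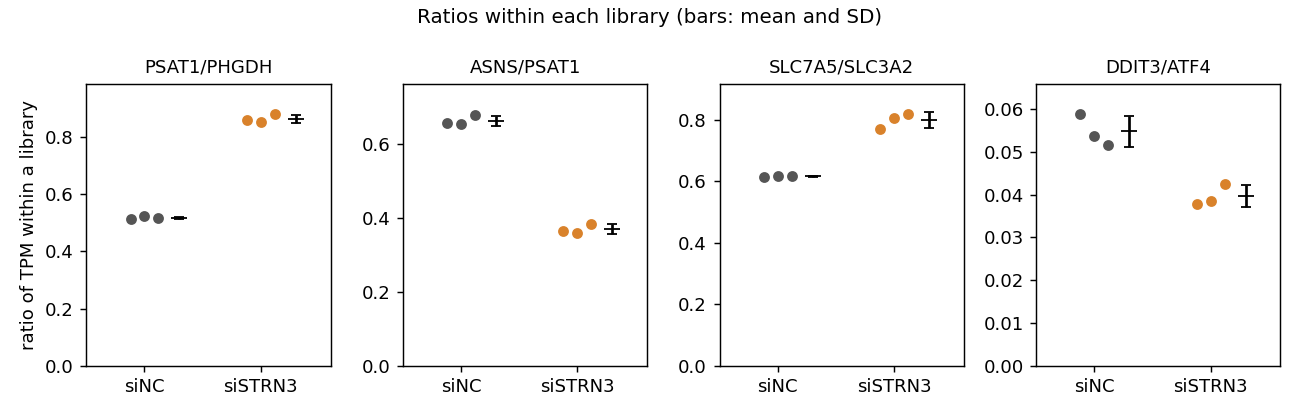
Ratio of the TPM of 2 genes within each library (points) for PSAT1 over PHGDH, ASNS over PSAT1, SLC7A5 over SLC3A2 and DDIT3 over ATF4 in siNC and siSTRN3, with mean and SD at the side. The pairs were chosen after the values were seen, and those shown are among the 7 of 12 whose groups lay apart. The ratios need no rescaling, and in each panel the 3 siSTRN3 points lie on one side of the 3 siNC points.

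Of the one-carbon enzymes, SHMT1, SHMT2 and MTHFD2 rose and none fell. SHMT2, the most abundant, stood at 242, 242 and 248 rescaled TPM in siNC and at 270, 276 and 283 in siSTRN3 (log2 fold change 0.18 ± 0.028 SE, limma, adjusted p = 0.00775). SHMT1 stood at 23.6, 25.9 and 26.9 and at 29.4, 28.6 and 30.7 (0.21 ± 0.059 SE, adjusted p = 0.0476). In both genes the groups were apart. MTHFD2, which oxidises the folate-bound unit in mitochondria, went from 113 ± 2.44 to 125 ± 2.28 rescaled TPM (SD, n = 3; 0.14, adjusted p = 0.0197). SHMT1 lost its call without any one library (adjusted p = 0.0547 to 0.128) and MTHFD2 without any except siSTRN3 replicate 1 (0.0517 to 0.0692). With TPM over protein-coding rows alone, neither SHMT1 nor MTHFD2 passed (limma, adjusted p = 0.0744 and 0.0565). MTHFD1, the cytosolic enzyme, stood at 0.05 and MTHFD1L, the mitochondrial formate enzyme, at -0.11, both with overlap.

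Among the other amino acid enzymes ASNS fell and both enzymes of proline synthesis rose. ASNS (chromosome 7, 97852118 to 97872542), asparagine synthetase and a standard ATF4 target whose promoter window is printed above, stood at 63.7, 64.2 and 68.6 rescaled TPM in siNC and at 49.9, 50.8 and 53.2 in siSTRN3. The groups were well apart, 1.27-fold lower in siSTRN3 (log2 fold change -0.35 ± 0.044 SE, limma, adjusted p = 0.00362), also without any one library. PYCR1, the last enzyme of proline synthesis, stood at 60.1, 61.9 and 62.1 and at 75.9, 71.7 and 67.5 (0.22 ± 0.048 SE, adjusted p = 0.0222). ALDH18A1, the first, stood at 44.1, 45.8 and 45.2 and at 49.97, 49.7 and 52.0 (0.16 ± 0.036 SE, adjusted p = 0.0228).

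In both proline enzymes all siSTRN3 libraries were above. The call of PYCR1 ended when any siNC library or siSTRN3 replicate 2 was left out (adjusted p = 0.0575 to 0.0806). For ALDH18A1 this held for any siNC library and siSTRN3 replicate 3 (0.0592 to 0.0855). ALDH18A1 also did not pass with TPM over protein-coding rows alone (limma, adjusted p = 0.0615). The transaminases and the glutamate dehydrogenase moved little, with GOT1 at 0.05, GLUD1 at 0.04, GOT2 at -0.07, BCAT1 at -0.12 and GPT2 at -0.13, none past the threshold. CTH, which makes cysteine from cystathionine, stood at -0.12 (adjusted p = 0.421). CBS, the enzyme before it, was at 0.02 to 0.22 TPM in all libraries as deposited and was not tested.

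The transporters held the member that fell most. SLC3A2 (chromosome 11, 62856102 to 62888875) encodes the heavy chain that carries several amino acid exchangers to the cell surface, among them SLC7A5 and SLC7A11. It stood at 150, 148 and 151 rescaled TPM in siNC and at 98.7, 101 and 93.2 in siSTRN3. The groups lay far apart, 1.53-fold lower (log2 fold change -0.61 ± 0.037 SE, limma, adjusted p = 2.61e-04). As deposited it went from 183 ± 0.323 to 76.0 ± 2.35 TPM (SD, n = 3).

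SLC7A5, the light chain LAT1 that imports leucine, stood at 92.1, 91.2 and 93.2 rescaled TPM in siNC and at 76.1, 81.6 and 76.5 in siSTRN3 (log2 fold change -0.24 ± 0.037 SE, limma, adjusted p = 0.00725). SLC1A5, the glutamine exchanger ASCT2, stood at 67.1, 64.7 and 68.1 and at 57.6, 58.9 and 57.6 (-0.20 ± 0.034 SE, adjusted p = 0.0103). SLC7A1, the arginine and lysine carrier CAT1, stood at 21.1, 20.6 and 21.0 and at 18.0, 18.2 and 18.2 (-0.19 ± 0.040 SE, adjusted p = 0.0190). In all 3 genes every siSTRN3 library was below every siNC library, and when 1 library was left out the calls of SLC7A5 and SLC1A5 held, while SLC7A1 passed no more if that library was siNC (adjusted p = 0.0513 to 0.0713).

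SLC7A5 over SLC3A2, the light chain over the heavy chain, was 0.614, 0.618 and 0.616 in the siNC libraries and 0.772, 0.806 and 0.821 in siSTRN3 (exact 2-sided permutation test p = 0.1, the smallest possible, 0.171 adjusted over 12 pairs, so the difference could not pass the threshold). SLC7A11, the cystine and glutamate exchanger, was low, at 1.89 ± 0.0682 and 2.06 ± 0.197 rescaled TPM with overlap (SD, n = 3; log2 fold change 0.08, adjusted p = 0.553). SLC38A2, the glutamine and alanine carrier that amino acid lack raises, stood at 0.19 with all siSTRN3 libraries above (adjusted p = 0.0706). SLC1A4 (0.14), SLC38A1 (-0.01), the glycine carrier SLC6A9 (-0.19) and the leucine carrier SLC43A1 (-0.26, adjusted p = 0.117, and 0.0128 without siSTRN3 replicate 3) had overlapping groups and did not pass.

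**Figure D4:**
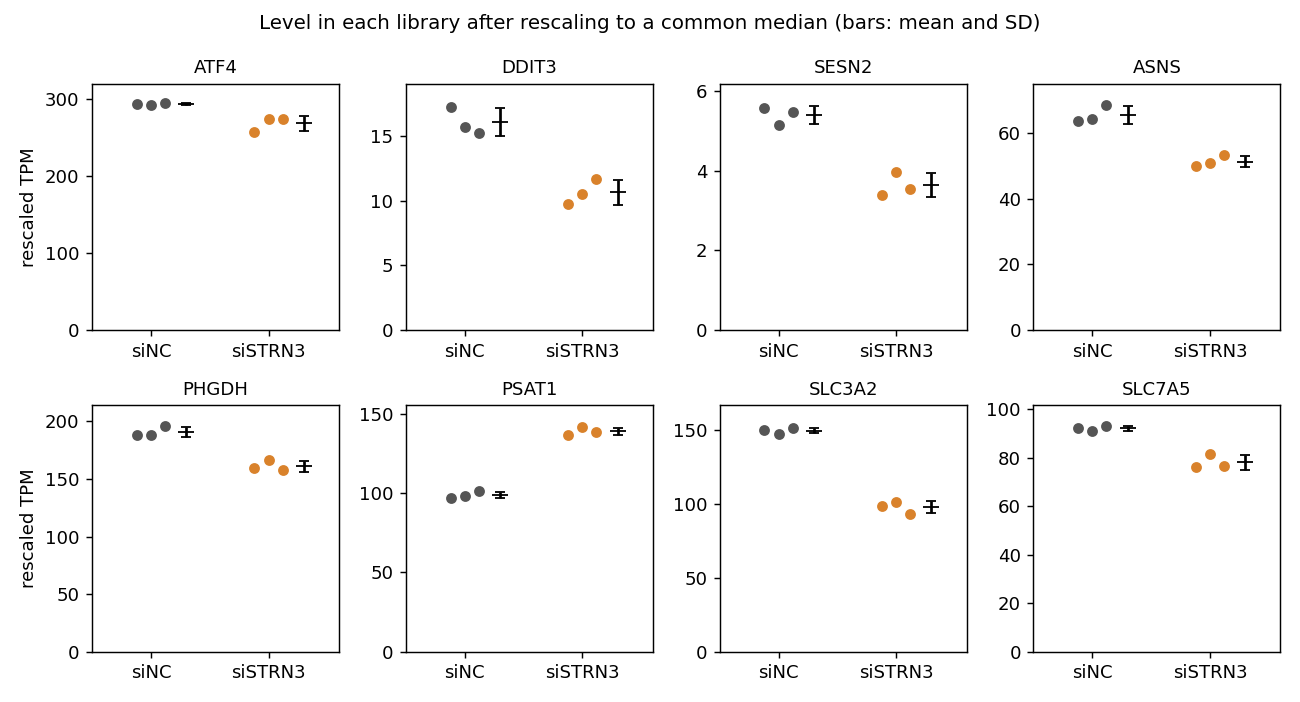
Rescaled TPM in each library (points) for 8 members in siNC and siSTRN3, with mean and SD at the side and axes from 0. In all 8 genes the groups do not overlap, PSAT1 being higher in siSTRN3 and the other 7 lower. All 8 passed the test, whereas of the 45 tested members 9 rose, 11 fell and 25 did not pass.

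Other genes of the pathway that are not among the 46 were taken from lists of 78 genes with a row, of which 64 were tested. Of these 14 rose, 11 fell and 39 did not pass (limma, adjusted p under 0.05), with a median log2 fold change of -0.00045. Beside these counts and those by role below, 11% of all tested rows rose and 10.4% fell. Of rows at a mean of 10 rescaled TPM or more, 31.1% passed in either direction. With TPM over protein-coding rows alone 9 rose and 17 fell, and when any one library was left out 5 to 9 rose (5 without siNC replicate 3) and 7 to 10 fell (7 without siNC replicate 1). Of 15 tested amino acid and one-carbon enzymes 6 rose and 1 fell, of 15 tested genes of the stress response 4 rose and 1 fell, and of 13 tested transporters 2 rose and 2 fell. The transporters among them included the gene that fell most, SLC7A8, the light chain LAT2 that also pairs with SLC3A2, at 65.6, 66.1 and 64.8 rescaled TPM in siNC and 37.6, 41.7 and 39.1 in siSTRN3 (log2 fold change -0.72 ± 0.045 SE, adjusted p = 2.87e-04). The groups were far apart, and SLC7A8 over SLC3A2 was 0.438 ± 0.00943 and 0.404 ± 0.0203 (SD, n = 3; exact 2-sided permutation test p = 0.1, 0.171 adjusted).

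SLC7A2, a carrier of cationic amino acids, fell from 24.3, 25.9 and 24.8 rescaled TPM in siNC to 19.3, 18.8 and 18.4 in siSTRN3 (-0.39, adjusted p = 0.00294). The glutamate carrier SLC1A3 stood at 7.94, 6.78 and 6.76 in siNC and at 10.5, 11.9 and 10.4 in siSTRN3. In both genes the groups did not overlap. SLC1A3 (0.55, adjusted p = 0.00756) and the related SLC1A1 (0.50, adjusted p = 0.0252) rose, the latter at a low level, 0.746, 0.882 and 0.677 rescaled TPM in siNC and 1.76, 1.43 and 1.31 in siSTRN3, and without any one library except siSTRN3 replicate 3 its call ended (adjusted p = 0.0508 to 0.0908). TNFRSF10B, the death receptor gene that CHOP is known to raise, rose, with 14.8 to 17.2 rescaled TPM in siNC and 20.7 to 22.8 in siSTRN3 (0.40, adjusted p = 0.0113). Of 13 genes of tRNA charging and export, 4 fell and 1 rose, beside 10.4% and 11% of all tested rows. CARS, for cysteine, stood at 37.4, 36.3 and 38.8 rescaled TPM in siNC and at 27.1, 29.4 and 30.2 in siSTRN3, with no overlap. CARS (-0.37, adjusted p = 0.00554), AARS, for alanine (-0.33, adjusted p = 0.00799), NARS, for asparagine (-0.23, adjusted p = 0.00903) and WARS, for tryptophan (-0.22, adjusted p = 0.0214), fell. YARS, for tyrosine, rose (0.38, adjusted p = 0.00797).

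Of the 8 genes of eIF2 and its exchange factor eIF2B, 1 rose, 3 fell and 4 did not pass. Over all tested rows 11% rose and 10.4% fell. EIF2S1, the alpha subunit that the kinases phosphorylate, fell from 170, 181 and 170 rescaled TPM in siNC to 143, 131 and 147 in siSTRN3 (log2 fold change -0.31 ± 0.050 SE, limma, adjusted p = 0.00855). In the authors' deposited table the adjusted p of EIF2S1 was 0.271. EIF2S3, the gamma subunit, rose from 37.8, 37.2 and 36.4 to 46.1, 47.5 and 46.7 (0.33 ± 0.035 SE, adjusted p = 0.00215). The eIF2B genes EIF2B2 (-0.32, adjusted p = 0.00854) and EIF2B4 (-0.26, adjusted p = 0.0329) fell. The log2 fold change was 0.13 for EIF2B3, 0.10 for EIF2B1, -0.01 for EIF2S2 and -0.01 for EIF2B5, none past the threshold. WARS lost its call when siNC replicate 1, siNC replicate 2 or siSTRN3 replicate 2 was left out (adjusted p = 0.0619, 0.0633 and 0.0584) and EIF2B4 without any one library except siSTRN3 replicate 2 (0.0733 to 0.0926). All synthetase and eIF2 genes named here except CARS were chosen after their values were seen.

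Near-identical transcripts were found for 5 members, ASNS, ATF4, CBS, GLUD1 and PSAT1, and those copies summed to at most 0.0417 TPM for any 1 of them. Exons of 9 members overlap those of another expressed gene. For SHMT2 that gene is NDUFA4L2, which rose (1.31) at a mean of 14.3 TPM as deposited. EIF2S1 overlaps ATP6V1D, which rose (0.47) at a mean of 26.3 TPM. In bulk RNA, fewer cells that express a gene and less of its RNA per cell cannot be told apart.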

How the data were processed

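RNA of 6 HGC-27 libraries was analysed, 3 per group, grouped by sample title. The authors deposited TPM values of each library beside p-values, adjusted p-values and a call of their own, as the column names show. HISAT2, Cufflinks, RSEM and the build GRCh38.p10 are named in the submitters' processing notes; neither annotation nor strand setting is given in the sources used here. From 58235 rows, 2 without a gene were left out. The 13004 rows that reached 1 TPM in 3 or more libraries were rescaled to a common median and tested with limma-trend on log2(TPM + 1), without a block (limma 3.58.1, R 4.3.3), and adjusted over all rows by Benjamini-Hochberg. A fold change on log2(TPM + 1) understates changes of low genes.

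The members and gene lists were chosen with earlier results of these data known. Values per library are given for up to 4 members of each role with adjusted p under 0.05 and groups apart, and ATF4; among other pathway genes with adjusted p under 0.05, the 3 highest and 3 lowest fold changes are named. Copies were searched with blastn (BLAST+ 2.17.0; 95% identity over 50% of the length) in GENCODE release 29. Promoters come from RefSeq, and 39 of 46 members matched. Tested on simulated data for this comparison (13004 genes), the fit found 53 of 100 genes with a 1.5-fold change, 79 of 100 with a 2-fold change and 17 of 12804 without any. Python 3.11.15, pandas 2.3.3, numpy 2.4.6, scipy 1.17.1 and matplotlib 3.10.9 were used.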

Additional observations from a re-analysis of the deposited data

How the results depend on the processing

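Scaling set the direction of the members that rose. The 11 members that fell were also called lower on the deposited TPM and with TPM over protein-coding rows. On the deposited TPM, 131 of all tested rows were higher and 10512 lower, 0 members were higher and 44 lower, and of the other pathway genes 0 were higher and 58 lower. There the log2 fold change turned below 0 for ATF3 (-0.50), ATF5 (-0.37), CEBPB (-0.44), CEBPG (-0.45), DDIT4 (-0.45), STC2 (-0.36), EIF2AK1 (-0.37), EIF2AK2 (-0.39), EIF2AK3 (-0.23), EIF2AK4 (-0.37), PSAT1 (-0.16), PSPH (-0.47), SHMT1 (-0.42), SHMT2 (-0.47), MTHFD1 (-0.60), MTHFD2 (-0.50), ALDH18A1 (-0.47), PYCR1 (-0.42), GOT1 (-0.59), GLUD1 (-0.60), SLC7A11 (-0.34), SLC1A4 (-0.37), SLC38A2 (-0.43), TNFRSF10B (-0.22), SLC1A3 (-0.035), YARS (-0.26) and EIF2S3 (-0.31). With TPM recomputed over protein-coding rows, 1080 rows were higher and 1982 lower, and 6 members were higher and 13 lower. Of the other pathway genes 9 were higher and 17 lower. On that scale SHMT1, MTHFD2 and ALDH18A1 no longer passed as higher, while PPP1R15A and VLDLR passed as lower. There MTHFD1 (-0.00013), GOT1 (-0.0015) and GLUD1 (-0.0083) changed sign. SLC38A1 changed sign with upper quartile scaling (0.0061). Without a filter on low values 7 other pathway genes were higher and 7 lower. A pseudocount of 0.1 changed no call of a member.

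Leaving out any one library gave 804 to 1092 rows higher and 707 to 1081 lower, 4 to 8 members higher and 7 to 11 lower, and 5 to 9 other pathway genes higher and 7 to 10 lower, with fewer libraries in the test. SLC38A1 ranged from -0.050 to 0.035, above 0 without siNC replicate 2 or siSTRN3 replicate 2, and ATF3 from -0.093 to 0.27, below 0 without siNC replicate 3 or siSTRN3 replicate 3. With the replicate number as a block, 906 rows were higher and 830 lower, 4 members higher and 8 lower, and 9 other pathway genes higher and 8 lower. Same-numbered libraries deviated from their group means with correlations of 0.057, -0.021 and -0.080, and differently numbered ones with -0.073 to 0.097. By this measure the same number marked no closer match. Whether same-numbered libraries share a batch was not tested. Depth is unknown, and 3 libraries per group limit what can be detected.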
